A study of Mus musculus with 6 samples.

Results

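The guanylate-binding proteins (Gbp) examined here were Gbp2, Gbp3, Gbp4, Gbp5, Gbp6, Gbp7 and Gbp9, which are 7 of the 10 Gbp genes and of 22800 gene symbols in the table. They were measured by RNA sequencing in cells of bronchoalveolar lavage fluid, which is collected by washing the airspaces of the lung with saline, in mice. The 3 sulfatide libraries came from mice injected in the peritoneal cavity with 20 µg of sulfatide, a sulfated glycolipid that CD1d presents to type II natural killer T cells. The 3 vehicle libraries came from mice given vehicle. The replicates are numbered 1, 2 and 3 in sulfatide and 2, 3 and 4 in vehicle, as in the sample titles. Strain, age, sex and time after injection are not given in the labels, nor whether the mice had undergone the lung ischemia and reperfusion that the title of the series names. The labels also do not say that the libraries came from separate animals, so a p-value here covers only the variation among these libraries, part of which may be technical. The genes were selected on their log2(FPKM + 1) levels in these 6 libraries, which were lower in sulfatide than in vehicle. Their levels and fold changes are therefore given as a description, without a test.

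Gbp proteins are large GTPases of the dynamin superfamily that cells make in response to interferons. Interferon gamma acts through its receptor and the Janus kinases on genes with gamma-activated sites (GAS) in their DNA. Irf1, itself induced by interferon, binds interferon-stimulated response elements (ISRE), as does Irf9 after type I interferon. In macrophages the proteins coat bacteria and the vacuoles that hold pathogens, and they promote the release of microbial ligands to the caspase-11 and AIM2 inflammasomes. The mouse genes lie in 2 clusters. Gbp5, Gbp7, Gbp3, Gbp2b and Gbp2 lie on chromosome 3 between 142496934 and 142638008, and Gbp8, Gbp9, Gbp4, Gbp10 and Gbp6 on chromosome 5 between 105012513 and 105295871 (RefSeq genes on GRCm38.p6, the assembly also called mm10).

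RefSeq promoter windows, which run from 250 bases before to 50 bases after a start, were matched for 4 of the 7 genes, all on chromosome 3 and all on the plus strand of GRCm38.p6. They are shown because each carries an ISRE core and some a GAS motif. Capitals mark matches to the ISRE core (GAAA, any 2 bases and GAAA again) or to the GAS motif TTCNNNGAA, both searched on both strands. Each ISRE match in these windows reads as the reverse complement, so the core lies on the minus strand.
Gbp2, chr3:142620413-142620712: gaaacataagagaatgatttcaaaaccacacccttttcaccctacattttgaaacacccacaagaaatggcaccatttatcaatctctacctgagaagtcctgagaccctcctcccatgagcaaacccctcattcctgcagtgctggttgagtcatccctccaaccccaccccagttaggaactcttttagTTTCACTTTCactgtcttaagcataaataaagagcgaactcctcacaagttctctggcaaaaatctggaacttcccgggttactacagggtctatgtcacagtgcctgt
Gbp3, chr3:142559794-142560093: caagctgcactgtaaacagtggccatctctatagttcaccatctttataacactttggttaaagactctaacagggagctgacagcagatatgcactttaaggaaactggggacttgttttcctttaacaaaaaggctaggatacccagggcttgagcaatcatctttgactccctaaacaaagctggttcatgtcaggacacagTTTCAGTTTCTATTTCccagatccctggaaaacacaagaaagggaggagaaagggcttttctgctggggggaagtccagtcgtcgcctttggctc
Gbp5, chr3:142496684-142496983: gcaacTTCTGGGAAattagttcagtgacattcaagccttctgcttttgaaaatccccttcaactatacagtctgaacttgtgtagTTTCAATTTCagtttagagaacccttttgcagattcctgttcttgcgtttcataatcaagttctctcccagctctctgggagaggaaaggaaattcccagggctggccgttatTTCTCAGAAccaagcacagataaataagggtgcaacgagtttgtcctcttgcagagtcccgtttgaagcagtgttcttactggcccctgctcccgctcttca
Gbp7, chr3:142530086-142530385: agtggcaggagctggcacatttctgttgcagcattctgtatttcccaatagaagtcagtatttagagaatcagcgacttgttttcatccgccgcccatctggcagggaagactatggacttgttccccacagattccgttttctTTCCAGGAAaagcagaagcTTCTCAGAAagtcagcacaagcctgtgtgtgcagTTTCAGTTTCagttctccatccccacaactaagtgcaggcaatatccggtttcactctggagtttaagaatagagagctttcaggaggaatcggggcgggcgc
An ISRE core began 59 bases before the start in Gbp2, 165 in Gbp5 and 53 in Gbp7. Gbp3 had 2 overlapping cores that began 45 and 39 bases before this start, and no match to either motif in the window of its other start. The window of Gbp2b, which is outside the 7 genes and was too low to test, also held a core, 137 bases before its start. Of all 32851 promoter windows, 3.44% held an ISRE core. GAS matches were found in Gbp5, 245 and 52 bases before the start, and in Gbp7, 106 and 87 bases before it. The windows of Gbp2, Gbp3 and Gbp2b held none, and 8.30% of all windows held one. The matches describe these letters and do not show that a factor was bound.

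Lavage cells of both groups carried macrophage transcripts. FPKM (fragments scaled to transcript length and to library size) summed to between 1217971 and 1249691 in sulfatide libraries and to between 1126779 and 1168474 in vehicle libraries. The depth of the other 5 libraries, estimated from low FPKM values, was 0.853 to 1.21 times that of vehicle replicate 2. Of 6 macrophage markers, 1 (Cd14) was lower in sulfatide, and the list summed to 28854 to 40312 FPKM in sulfatide and 32542 to 37213 FPKM in vehicle libraries. Of 6 markers of resident alveolar macrophages, 2 were tested and 0 called by limma (0 at an unadjusted p of 0.05), with sums of 62.3 to 184 FPKM in sulfatide and 83.2 to 106 FPKM in vehicle libraries. Among them Fabp1 and Krt79 were listed at 0, Siglecf did not exceed 0.9 FPKM, and Marco made up most of the sum. All 8 T and NK cell markers were below the level for testing, with Cd3e, Trbc2, Nkg7 and Ncr1 at 0, and their sum was 0.15 to 0.2 FPKM in sulfatide and 0.2 to 0.38 FPKM in vehicle libraries. Of 6 neutrophil markers, 3 were tested and 2 (S100a8 and Mmp8) were higher in sulfatide, with sums of 400 to 558 FPKM in sulfatide and 126 to 175 FPKM in vehicle libraries, most of it S100a8. Mmp8 was near the threshold (limma adjusted p = 0.0439) and its ranges overlapped, at 28.5 to 51.8 FPKM in sulfatide and 16.7 to 29.8 FPKM in vehicle libraries. S100a9 was at 21.2 ± 12.6 FPKM in sulfatide and 21.9 ± 7.61 FPKM in vehicle (SD, n = 3 each, limma adjusted p = 0.804), and Ly6g and Cxcr2 did not exceed 0.18 FPKM. Of 4 dendritic cell markers, 1 was tested, Cd209a, which passed the filter only through the sulfatide libraries and was higher there, at 1.19 to 2.59 FPKM against 0 in each vehicle library. Xcr1 was at 0 throughout, Flt3 and Zbtb46 did not exceed 0.24 FPKM, and the list summed to 1.4 to 2.79 FPKM against 0.32 to 0.38 FPKM. The part of these cell types in the Gbp levels was not tested. In bulk samples, fewer cells of a type and less RNA per cell cannot be told apart.

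Gbp2 was the most abundant of the 7 genes in every library. Its protein is prenylated and coats vacuoles of Toxoplasma in mouse cells. Gbp2 was at 299.6, 265.4 and 294.9 FPKM in sulfatide replicates 1, 2 and 3, and at 837.5, 636.5 and 766.5 FPKM in vehicle replicates 2, 3 and 4. Sulfatide libraries lay close together, and the lowest vehicle library was 2.12 times the highest sulfatide library. Mean levels were 287 ± 18.6 FPKM in sulfatide and 747 ± 102 FPKM in vehicle (SD, n = 3 each), 2.61-fold lower in sulfatide, the smallest fold of the 7 genes. Its log2 fold change, taken as sulfatide minus vehicle from log2(FPKM + 1) values like all that follow, was -1.37 ± 0.11 (SE). By mean level Gbp2 ranked 668 of 22800 genes in sulfatide and 260 in vehicle libraries.

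Gbp5 and Gbp3 followed in level. Gbp5, which is also prenylated and has been linked to assembly of the NLRP3 inflammasome in mouse macrophages, was at 47.7, 32.9 and 44.3 FPKM in sulfatide and at 315.6, 216.4 and 250.6 FPKM in vehicle libraries. The groups did not overlap, and Gbp5 was 6.27-fold lower in sulfatide (log2 fold change -2.62 ± 0.17). Gbp3, in the same cluster on chromosome 3, was at 121.0, 81.7 and 98.4 FPKM in sulfatide and at 492.1, 365.3 and 395.8 FPKM in vehicle libraries. Again no sulfatide library reached a vehicle library, and the mean was 4.16-fold lower (-2.05 ± 0.15).

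Gbp7, Gbp6, Gbp9 and Gbp4 were expressed at far lower levels. Gbp7, which in mice has been linked to assembly of the phagocyte NADPH oxidase, was at 1.54, 2.12 and 2.32 FPKM in sulfatide and at 17.9, 10.0 and 18.0 FPKM in vehicle libraries, 7.68-fold lower by the means. Gbp6, on chromosome 5, contributes in mouse macrophages to resistance against Listeria and mycobacteria. It was at 4.37, 4.75 and 4.86 FPKM in sulfatide and at 35.4, 19.8 and 27.8 FPKM in vehicle libraries, 5.94-fold lower. Sulfatide libraries differed little in Gbp6, with a coefficient of variation of 5.52% against 28.1% in vehicle. Gbp9 was at 2.89, 2.11 and 2.59 FPKM in sulfatide and at 18.2, 11.5 and 14.6 FPKM in vehicle libraries, 5.84-fold lower. Gbp4 was at 0.15, 0.27 and 0.24 FPKM in sulfatide and at 4.32, 1.69 and 3.08 FPKM in vehicle libraries, 13.8-fold lower. It thus passed the filter of 1 FPKM in at least 3 libraries only through the vehicle group. None of these 4 genes had a sulfatide library that reached a vehicle library. Log2 fold changes were -2.41 ± 0.21 for Gbp7, -2.30 ± 0.18 for Gbp6, -2.14 ± 0.17 for Gbp9 and -1.67 ± 0.23 for Gbp4. The added 1 FPKM understates the change of such low genes: with a pseudocount of 0.1 the value of Gbp4 was -3.21.

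**Figure D1:**
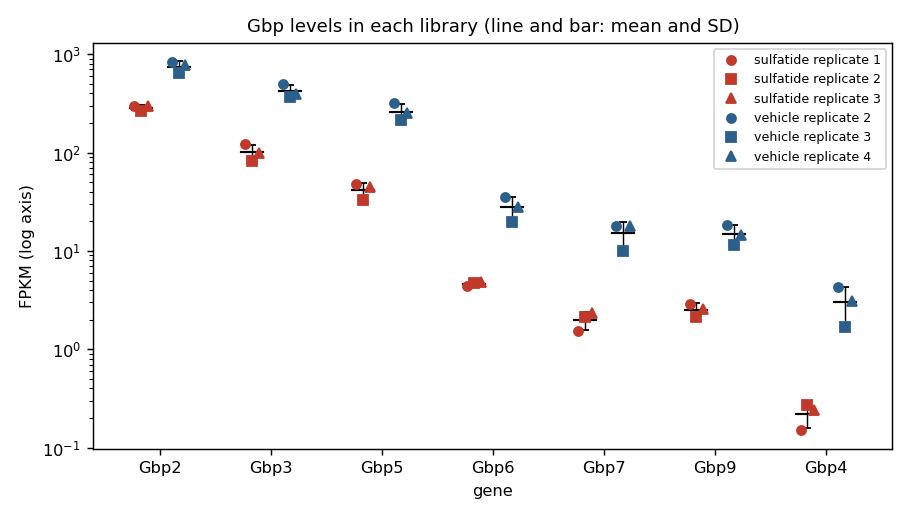
Level of each Gbp gene in FPKM (vertical log axis) in the 3 sulfatide libraries (red, left) and the 3 vehicle libraries (blue, right), with a line at the mean and a bar of 1 SD. For each gene the red points lie below the blue points, by 2.61-fold in Gbp2 and 13.8-fold in Gbp4 by the means.

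In the comparison across all genes, 7 of the 7 Gbp genes were called lower in sulfatide, beside 10.4% of the 10405 genes tested, and all 7 had no overlap of the groups, beside 18.3% of the genes tested. The genes were chosen with this contrast known, so nothing is read from these counts. Their median log2 fold change was -2.14 and that of all genes tested 0.04. The 4 genes on chromosome 3 were 2.61- to 7.68-fold lower and the 3 on chromosome 5 were 5.84- to 13.8-fold lower, so the ranges of the clusters overlap. Leaving out any 1 library gave folds of 2.45 to 2.80 for Gbp2, 5.61 to 6.80 for Gbp5 and 10.8 to 16.8 for Gbp4.

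The order of levels was nearly the same in both groups. Gbp2 exceeded Gbp3, Gbp3 exceeded Gbp5, Gbp5 exceeded Gbp6, and Gbp4 was lowest, with no overlap between neighbours in either group. Gbp6 also lay above Gbp9 and Gbp7 without overlap. Gbp9 and Gbp7 did not differ beyond their spread: Gbp9 averaged 2.53 ± 0.393 FPKM and Gbp7 1.99 ± 0.405 FPKM in sulfatide, and 14.8 ± 3.37 and 15.3 ± 4.57 FPKM in vehicle (SD, n = 3 each).

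The summed level of the 7 genes was 438 ± 44.8 FPKM in sulfatide and 1486 ± 230 FPKM in vehicle (SD, n = 3 each), 3.39-fold lower, or 0.0354% and 0.130% of all FPKM. The make-up of the pool differed between the groups because the folds were unequal. Gbp2 took 62.8 to 68.2% of the pool in sulfatide libraries and 48.7 to 51.9% in vehicle libraries. Gbp5 took 8.45 to 10.0% in sulfatide and 16.98 to 18.3% in vehicle libraries, and Gbp3 took 21.0 to 25.4% in sulfatide and 26.8 to 29.0% in vehicle libraries. The other 4 genes together took 1.88 to 2.38% in sulfatide and 3.41 to 4.41% in vehicle libraries. The level of Gbp5 was 15.9, 12.4 and 15.0% of that of Gbp2 within the sulfatide libraries and 37.7, 34.0 and 32.7% within the vehicle libraries. Gbp6 was at 188 ± 37.0% of Gbp9 in sulfatide and 186 ± 11.8% in vehicle (SD, n = 3 each), with a range of 151 to 225% over the sulfatide libraries and 172 to 194% over the vehicle libraries.

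**Figure D2:**
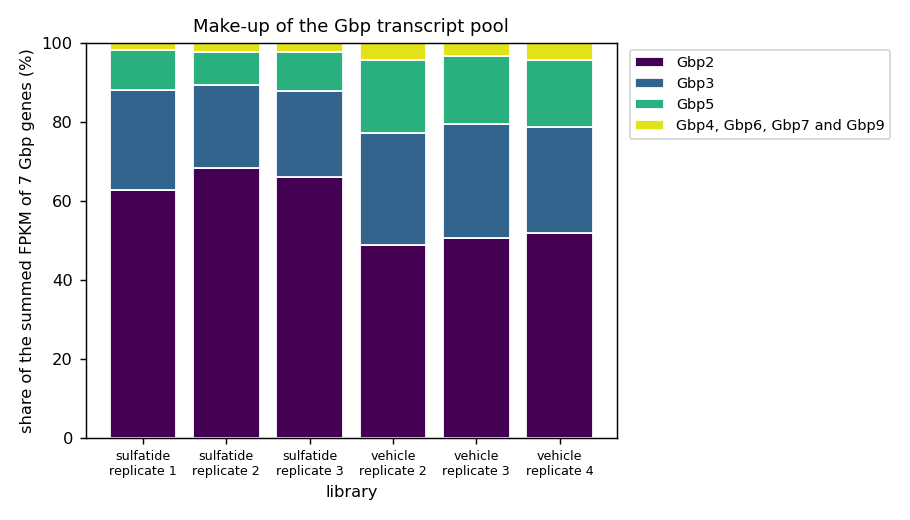
Shares (%) of Gbp2, Gbp3, Gbp5 and the other 4 Gbp genes together in the summed FPKM of the 7 genes, 1 bar per library, with sulfatide libraries on the left and vehicle libraries on the right. The part of Gbp2 is 62.8 to 68.2% in sulfatide and 48.7 to 51.9% in vehicle libraries, and that of Gbp5 is 8.45 to 10.0% and 16.98 to 18.3%.

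Libraries also differed within each group, apart from the difference between groups by which the genes were chosen. Genes that vary together are not separate observations of a library, so the counts below are a description. All 7 genes were lowest in vehicle replicate 3 among the vehicle libraries, where 25.1% of all genes tested were lowest in that library. In 6 of 7 the order was replicate 2, then 4, then 3, an order found in 9.59% of all genes tested. Gbp7 was the exception, at 17.94 and 17.96 FPKM in replicates 2 and 4. The level in vehicle replicate 3 was 39.1% (Gbp4) to 76.0% (Gbp2) of that in vehicle replicate 2, with a median of 63.1%, while the median over all genes tested was 107%. Among sulfatide libraries the genes were not ordered alike. Gbp2, Gbp3, Gbp5 and Gbp9 were highest in replicate 1 and lowest in replicate 2, an order found in 25.6% of all genes tested, while Gbp4, Gbp6 and Gbp7 were lowest in replicate 1.

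**Figure D3:**
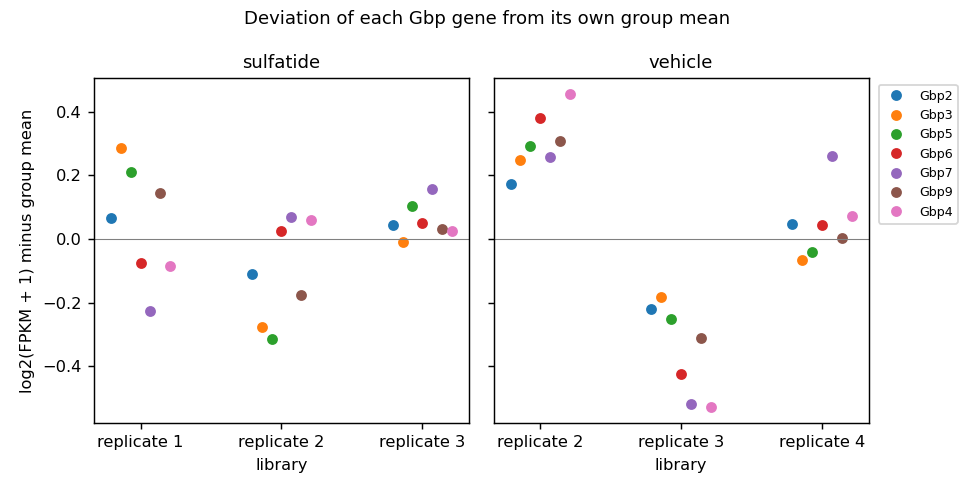
Log2(FPKM + 1) of each Gbp gene minus its mean in the same group, for the 3 sulfatide libraries (left panel) and the 3 vehicle libraries (right panel), 1 colour per gene. All 7 genes lie below 0 in vehicle replicate 3 and above 0 in vehicle replicate 2, whereas they lie on both sides of 0 in sulfatide replicates 1, 2 and 3.

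The other 3 Gbp genes in the table, Gbp8, Gbp2b and Gbp10, were too low to test. Gbp8 was at 0.12, 0.04 and 0.1 FPKM in sulfatide and at 0.91, 0.57 and 0.51 FPKM in vehicle libraries, without overlap. Gbp2b, which encodes the protein usually called mouse GBP1, was at 0, 0.15 and 0 FPKM in sulfatide and at 0.35, 0.08 and 0.26 FPKM in vehicle libraries, and these ranges overlapped. Gbp10 was listed at 0 in all sulfatide libraries and at 0.17, 0.04 and 0.08 FPKM in vehicle libraries. Gbp10 and Gbp6 share long stretches of sequence. Of the 100-base stretches of the Gbp6 transcript (GENCODE M21), 46.7% also occur in other Gbp transcripts, chiefly that of Gbp10, and the division of fragments between these genes is uncertain. For Gbp2 and Gbp5 this share was 0%, for Gbp3 0.929%, for Gbp7 0.435%, for Gbp9 2.01% and for Gbp4 2.88%.

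Prenylation anchors some Gbp proteins in membranes. It takes place at a cysteine that is followed by the last 3 residues of the protein. The coding ends of 4 transcripts (GENCODE M21, GRCm38) are shown with the last 4 codons in capitals and the stop codon at the end.
Gbp2: aagTGCACTATACTCtga
Gbp5: gacTGTGTTATAAGCtaa
Gbp3: ggcTCACTAAGTAGTtag
Gbp7: aaaGTTAGAAAACTCtaa
Gbp2 and Gbp5 begin the capitals with a cysteine codon (TGC or TGT), as does Gbp2b. Gbp3 and Gbp7 have another codon there, as do Gbp4, Gbp6 and Gbp9. None of the 6 genes of the lipid anchoring list passed the test in the comparison of all genes by limma (0 at an unadjusted p of 0.05). Pggt1b, the geranylgeranyl transferase subunit, was at 10.0 ± 1.14 FPKM in sulfatide and 11.7 ± 0.947 FPKM in vehicle (SD, n = 3 each, adjusted p = 0.240). Fnta, a subunit shared with the farnesyl transferase, was at 81.6 ± 8.76 FPKM in sulfatide and 77.8 ± 13.6 FPKM in vehicle (adjusted p = 0.718). Fntb, its farnesyl transferase partner, was at 3.88 ± 0.187 FPKM in sulfatide and 3.65 ± 0.847 FPKM in vehicle (adjusted p = 0.728), and the sign of both differences changed with the processing. Icmt, which methylates the prenylated cysteine, was at 4.45 ± 0.480 FPKM in sulfatide and 4.88 ± 0.406 FPKM in vehicle (adjusted p = 0.550). The remaining genes of that list were Rce1 and Zmpste24, both of them proteases.

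Of the interferon signalling list, 7 of 13 tested genes fell and 1 rose, with a median log2 fold change of -0.30. The 18.7% of all genes tested that were called in either direction set the background for such counts, with 8.31% higher. Stat2, a transcription factor of type I interferon signalling, fell 3.03-fold (adjusted p = 0.000643), and Batf2, which acts with Irf1, fell 3.68-fold (adjusted p = 0.00101). Irf1 was at 99.7, 89.2 and 129.0 FPKM in sulfatide and at 201.8, 146.4 and 173.2 FPKM in vehicle libraries. It fell 1.64-fold (adjusted p = 0.0140), but not past the threshold without vehicle replicate 2 (0.0659) or with a block for replicate number (0.120). Tyk2, a Janus kinase of the type I receptor, fell 1.66-fold (adjusted p = 0.00146). Jak2 and Irf9, which lie outside the naming rule, were also among the genes that fell.

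Receptors and ligands of that list differed less or were near 0. Ifngr1, the ligand-binding chain of the interferon gamma receptor, was 1.204-fold higher, at 173 ± 6.89 FPKM in sulfatide and 144 ± 7.85 FPKM in vehicle (SD, n = 3 each, adjusted p = 0.0494). The call was lost in 10 of 12 alternatives, among them leaving out any 1 of the 6 libraries (0.0519 to 0.192). Ifngr2, the signalling chain, was at 214 ± 9.76 FPKM in sulfatide and 233 ± 11.01 FPKM in vehicle (adjusted p = 0.310). Irf8, a factor of the monocyte lineage that also binds interferon elements, was at 111 ± 5.51 FPKM in sulfatide and 97.9 ± 11.4 FPKM in vehicle (adjusted p = 0.240). Ifng, the ligand itself, had a value of 0 in each library, and Ifnb1 was at 0.12 to 0.4 FPKM in sulfatide and 0.14 to 0.42 FPKM in vehicle libraries. Without vehicle replicate 2 the list had 4 genes lower, and 0 higher.

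The list of genes that restrain this signalling also held Pim1, which acts on a Gbp protein. Of its 8 genes, 4 fell and 0 rose (median -0.31), beside 10.4% and 8.31% of all genes tested. Usp18, which blocks the type I interferon receptor, fell 4.80-fold, at 46.7 ± 3.70 FPKM in sulfatide and 224 ± 49.6 FPKM in vehicle (adjusted p = 4.62e-05). Socs1, an inhibitor of Janus kinases, fell 3.30-fold (adjusted p = 5.85e-05), and Pim1, a kinase that phosphorylates human GBP1, fell 2.17-fold (adjusted p = 5.03e-05). Socs3, of the same family, fell 1.303-fold (adjusted p = 0.0216, and 0.0632 to 0.0957 without sulfatide replicate 1 or 3 or vehicle replicate 2 or 4).

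The immunity-related GTPases, some of which load onto the same vacuoles as Gbp proteins, were tested in 7 genes. Beside 10.4% of all genes tested, all 7 fell (median -1.94). Of these, Iigp1, named here after its values were seen, passed the filter only through the vehicle libraries, at 0.59 to 0.97 FPKM in sulfatide and 4.37 to 10.5 FPKM in vehicle libraries, and Tgtp1, also of the list, was too low to test. Irgm1 fell 2.30-fold, Irgm2 3.21-fold, Igtp 3.82-fold, Ifi47 3.91-fold, Gm12250 3.94-fold and Tgtp2 7.96-fold, with adjusted p between 0.000132 and 0.000458. All 7 had the order of vehicle replicates 2, 4 and 3 seen in 6 of 7 Gbp genes, beside 9.59% of all genes tested. Among sulfatide libraries the families differed. There 5 of the 7 had the order 3, 1 and 2, beside 0 Gbp genes and 12.1% of all genes tested. The order 1, 3 and 2 of 4 Gbp genes was found in 0 of them. Of 3 other large GTPases tested, Gvin1 fell 4.25-fold (adjusted p = 0.000211). Atl3, which like Gbp proteins belongs to the dynamin superfamily, was 1.33-fold lower (adjusted p = 0.0497). That call was lost without sulfatide replicate 1 or 3 or vehicle replicate 2 or 4 (0.106 to 0.181). Atl2 was 1.29-fold higher (adjusted p = 0.126, and 0.0143 without vehicle replicate 3).

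Of 14 genes that help to load Gbp proteins or to handle coated vacuoles, 2 fell and 3 rose (median 0.12). The shares over all genes tested were 10.4% lower and 8.31% higher, and nothing is read from these counts. Trim21, an antibody receptor with ubiquitin ligase activity, fell 2.27-fold (adjusted p = 0.000479), and the autophagy receptor Sqstm1 fell 1.74-fold, at 712 ± 172 FPKM in sulfatide and 1242 ± 124 FPKM in vehicle (adjusted p = 0.00691). Map1lc3b, a ubiquitin-like protein that marks autophagic membranes, rose 1.37-fold (adjusted p = 0.00627) and Atg5, part of the machinery that attaches it, rose 1.303-fold (adjusted p = 0.0167). Gabarap, outside the naming rule, was the other gene that rose. Only 1 of these rises was called without sulfatide replicate 1, sulfatide replicate 3 or vehicle replicate 2, and rescaling to TPM gave 4 genes lower.

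Inflammasome genes that act after Gbp proteins or beside them made up a list of 12. Of these, 6 fell and 1 rose (median -0.38), beside 10.4% and 8.31% of all genes tested. Il1b (8.26-fold, adjusted p = 5.26e-05), Il18 (3.79-fold, adjusted p = 8.68e-05) and the sensor Nlrp3 (2.48-fold, adjusted p = 0.000217) had the largest falls. Casp4, the mouse gene of caspase-11, was at 114 ± 4.67 FPKM in sulfatide and 148 ± 19.9 FPKM in vehicle (adjusted p = 0.0433), 1.29-fold lower. Casp1 was at 281 ± 14.7 FPKM in sulfatide and 384 ± 53.2 FPKM in vehicle (adjusted p = 0.0214), and Gsdmd, the pore-forming protein they cleave, at 167 ± 17.5 FPKM in sulfatide and 227 ± 21.9 FPKM in vehicle (adjusted p = 0.0218). The call of Casp4 was lost without any 1 library other than vehicle replicate 3 (0.0705 to 0.155), that of Casp1 without sulfatide replicate 2 or 3 or vehicle replicate 2 (0.0560 to 0.0807), and that of Gsdmd without sulfatide replicate 1 or 2 or vehicle replicate 2 or 4 (0.0550 to 0.103). Without vehicle replicate 2 the list had 3 genes lower. Aim2, the DNA sensor, was at 35.1 ± 3.91 FPKM in sulfatide and 46.9 ± 6.93 FPKM in vehicle (adjusted p = 0.0561, and 0.0491 without vehicle replicate 3 and 0.0203 as TPM, with a range of 0.0203 to 0.199 over the alternatives). As TPM, 8 genes of the list were lower. The adaptor Pycard rose 1.42-fold (adjusted p = 0.0119, and 0.0538 without sulfatide replicate 3 and 0.0650 without vehicle replicate 2).

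**Figure D4:**
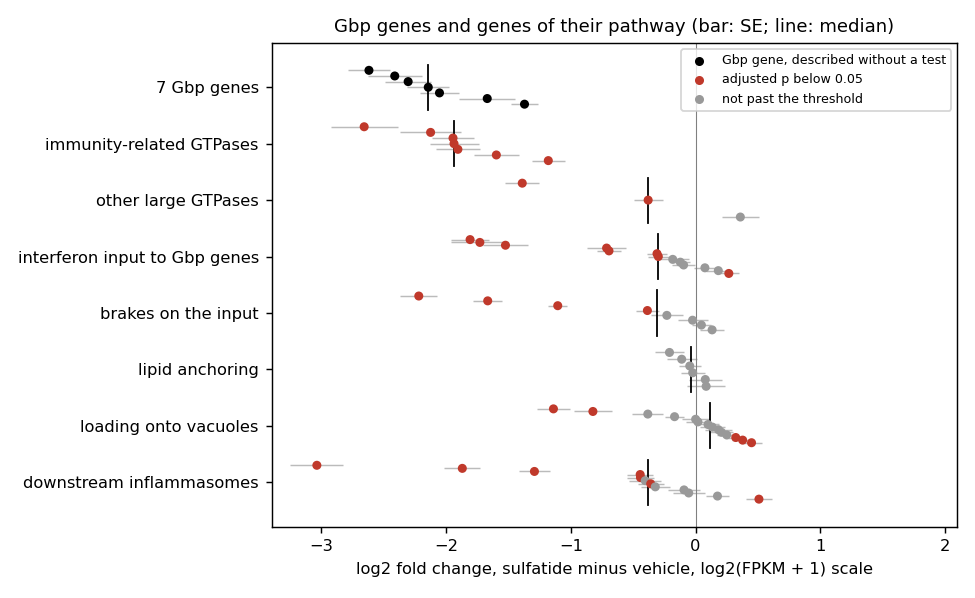
Log2 fold change (horizontal axis, sulfatide minus vehicle, from log2(FPKM + 1) values) of the 7 Gbp genes and of each tested gene of 7 lists, 1 point per gene, with SE bars and a line at each median. The medians are -2.14 for the Gbp genes, -1.94 for the immunity-related GTPases and -0.03 for lipid anchoring, and red points passed an adjusted p of 0.05.

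The profile of the 7 genes over the 6 libraries was set against that of each of 10398 other tested genes. Likeness was the root-mean-square distance between log2(FPKM + 1) profiles, each centred on its own mean, from the mean of the Gbp profiles. The 8 closest genes were Usp18 (0.08), Irf7 (0.10), BC147527 (0.11), Ifi47 (0.11), Phf11d (0.13), Igtp (0.13), Phf11b (0.14) and Tnfsf10 (0.15), where the median distance was 1.09. The distances use the same values on which the Gbp genes were selected. A small distance therefore mostly reflects a similar log2 fold change between the groups, and nothing is read from the gap to the median. Irf7, a factor that amplifies type I interferon, was at 112.5, 104.4 and 130.8 FPKM in sulfatide and at 565.0, 342.2 and 539.5 FPKM in vehicle libraries. Tnfsf10, which encodes the death ligand TRAIL, was at 0.25, 0.37 and 0.74 FPKM in sulfatide and at 5.85, 3.48 and 5.12 FPKM in vehicle libraries. It passed the filter only through the vehicle libraries. The added 1 FPKM understates its change, with a log2 fold change of -1.99 where the mean was 10.6-fold lower, and its distance depends on that. Irf7 and Tnfsf10 were both lowest in vehicle replicate 3 among the vehicle libraries. Gbp9 was closest to the mean Gbp profile (0.06) and Gbp2 farthest from it (0.36). Gbp2, Gbp5 (0.295), Gbp7 (0.243), Gbp4 (0.243) and Gbp3 (0.151) each lay farther from that profile than all 8 genes named. Gbp6 (0.140) lay farther than all of them except Tnfsf10 (0.145).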

How the data were processed

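Poly(A) RNA of lavage cells was sequenced as strand-specific paired-end libraries, per the labels' protocols. Per the submitters' processing notes, mm10 was the build. The aligner, the counter, the annotation and any strand setting were not given in the sources used here. The authors deposited FPKM values rounded to 2 decimals, without counts, so absolute depth is unknown. Values in 3 further columns matched no sample and were not used. Values were analysed as log2(FPKM + 1) for 10405 genes at 1 FPKM or more in at least 3 libraries. Sulfatide was compared with vehicle by limma 3.58.1 in R 4.3.3 (eBayes with trend, 2-sided, Benjamini-Hochberg over all genes tested, threshold 0.05), which was tested on simulated data. Folds are ratios of mean FPKM.

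Genes named were the Gbp genes, up to 4 per list with the smallest p, a fixed set (Ifng, Ifnb1, Ifngr1, Ifngr2, Irf1, Irf8, Socs1, Irgm1, Irgm2, Igtp, Casp4, Casp1, Gsdmd and Aim2) and the 8 closest profiles; 1 gene of the set is not reported here. Genes, lists and markers were chosen with earlier results of these data known, and other genes after their values were seen. No B cell (sum at most 0.12 FPKM) or lung epithelium marker (at most 0.23 FPKM) was tested. Of 4 endothelial and stromal markers 2 were tested and 0 called by limma (0 at an unadjusted p of 0.05). These 4 were not near 0 as a list. They summed to 32.6 to 42.2 FPKM in sulfatide and 33.8 to 44.5 FPKM in vehicle libraries, most of it Col1a1 and Acta2. Alternatives were a filter at 5 FPKM or none, pseudocounts of 0.1 and 0.5, TPM, a replicate block and leaving out each library. Promoters came from RefSeq (GRCm38.p6) and transcripts from GENCODE M21.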

Additional observations from a re-analysis of the deposited data

How the results depend on the processing

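Since the 7 Gbp genes were selected on this contrast, their calls and signs under the 12 alternatives are no sign of stability. Gbp4 was not tested with the filter at 5 FPKM. By log2 fold change Gbp5 was the lowest of the 7 at -2.62, but with a pseudocount of 0.1 Gbp4 (-3.21) and Gbp7 (-2.85) were lower. The genes called higher over all tested numbered 865, and 522 with no filter, 468 as TPM and 297 with the replicate block, and 268 (without vehicle replicate 2) to 1421 (without vehicle replicate 3) when 1 library was left out. As TPM 1516 were lower, so the split turned further to lower genes. Those lower numbered 1078, and 635 with the block and 642 to 1135 without 1 library. Replicate number 1 occurs only in sulfatide and number 4 only in vehicle. The block therefore compares the groups within numbers 2 and 3 alone, and its counts rest on fewer libraries. With the block, lower genes numbered 4 for interferon signalling, 3 for inflammasomes and 1 for other large GTPases (1 too with no filter or the filter at 5 FPKM). Without 1 library these ranged from 4 to 7, 3 to 7 and 1 to 2, and other large GTPases higher from 0 to 1. Ifngr1 was not called with a pseudocount of 0.1, no filter, TPM or the block, which left 0 genes higher. Irf1 (limma adjusted p = 0.120), Socs3 (0.0840), Casp4 (0.0782), Casp1 (0.0609), Gsdmd (0.154), Atl3 (0.227) and Atg5 (0.105) also lost their calls with the block. Casp4 (0.0725) and Atl3 (0.0912) lost them with no filter. The vacuole list had 4 lower as TPM and 1 higher with the block, and 1 to 4 higher without 1 library, and inflammasomes 0 to 1. Log2 fold changes of Fnta changed sign as TPM (-0.0320) and with the block (-0.13), and ran from -0.0473 to 0.203 without 1 library. Those of Fntb changed sign as TPM (-0.00289) and with the block (-0.0922), and ran from -0.0700 to 0.194. The causes were not tested. The groups share only the numbers 2 and 3, and deviations from the group mean correlated over genes at 0.16 and -0.30 for them. Over all pairs of a sulfatide and a vehicle library, the highest was 0.54, for sulfatide replicate 1 and vehicle replicate 3. The lowest was -0.40, for sulfatide replicate 1 and vehicle replicate 4. Correlations over the shared numbers 2 and 3 alone cannot decide whether samples were paired. The labels name 2 groups and no batch, so the numbers were not taken to pair samples.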
